A study of Mus musculus with 24 samples.

Results

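The epidermal growth factor (EGF) receptor family was followed at the transcript level through 10 genes: the ligands Areg, Ereg, Epgn, Btc, Hbegf, Tgfa and Nrg1, and the receptors Egfr, Erbb2 and Erbb3. They were taken by symbol from the 55487 genes of each deposited table, and all 10 were found. Bulk messenger RNA was measured in C57BL/6 mice that lacked Axin1 in intestinal epithelial cells (KO) and in wild-type mice (WT). Axin1 encodes a scaffold protein of the beta-catenin destruction complex, the brake on Wnt signalling. For each genotype there were 3 libraries of untreated colon, 3 of colon labelled day 7 and 3 labelled day 13 of dextran sulfate sodium (DSS), which injures the gut lining and causes colitis, and 3 of colorectal tumours raised with azoxymethane (AOM), a carcinogen, and DSS. The deletion was targeted to the epithelium, so other cells of the colon wall in KO mice should keep Axin1. The labels give neither the driver of the deletion, nor the animals' age or sex, nor how long DSS was given. The 24 libraries, 18 of colon and 6 of tumours, are described as biological replicates.

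Totals of expected counts per library ran from 15.65 M to 28.07 M (mega-counts), with a median of 23.645 M. Axin1 itself checked the labels: it lay at 13.8 to 19.3 CPM (counts scaled to the size of the library) in the 12 KO libraries and at 46.2 to 58.6 CPM in the 12 WT libraries, with no overlap in any condition. Its log2 difference was -1.62 ± 0.12 in untreated colon (adjusted p = 9.58e-06 by edgeR) and -1.60 in tumours, where it did not pass (adjusted p = 0.0866). All 10 epithelial markers (Epcam, Cdh1, Krt8 and others) were at 1 CPM or more in all colon and all tumour libraries. Several libraries stood apart. Replicate 2 of WT day 7 had the highest sums of smooth muscle, fibroblast and nerve markers of all colon libraries, replicate 1 of KO day 13 and replicate 3 of WT day 13 were rich in keratins of squamous epithelium (1247 and 5289 CPM, against at most 13.4 CPM in the other colon libraries), and replicate 3 of untreated KO was the highest of its group for Ereg, Tgfa, Nrg1 and Egfr. Xist and the Y-linked Ddx3y separated the libraries into female-type and male-type ones. Female-type were 0 of 3 untreated KO, 1 of 3 untreated WT, 2 of 3 KO day 7, 3 of 3 WT day 7, 3 of 3 KO day 13, 0 of 3 WT day 13 and 1 of 3 in each tumour group. At day 13, therefore, genotype and this difference cannot be told apart by the groups alone. The same holds for day 13 against untreated in KO and for day 13 against day 7 in WT, where all libraries of a group were of 1 type and those of the other group of the other type. The difference between the KO and WT responses at day 13 carries this difference too, since untreated and day 13 KO libraries were of opposite types.

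In this family a ligand is made as a membrane-anchored precursor, is cut free by metalloproteases such as ADAM17, and binds receptors that pair and switch on the RAS-ERK and PI3K pathways. EGFR binds amphiregulin (Areg), transforming growth factor alpha (Tgfa), epigen (Epgn), betacellulin (Btc), heparin-binding EGF (Hbegf) and epiregulin (Ereg). ERBB3 binds neuregulins such as Nrg1 and has a kinase of little activity of its own, and ERBB2 has no known ligand and serves as a partner. In the intestine these signals drive proliferation of crypt cells and repair after injury, and several of the ligands are made by mesenchymal and immune cells as well as by epithelium.

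Epgn, Ereg, Areg and Btc lie next to each other on chromosome 5 of GRCm38, from position 91027464 to 91402994. The span of 375.5 kb held 7 annotated genes, of which 4 were protein-coding, and these were the 4 ligands. Tgfa lies on chromosome 6, Nrg1 on chromosome 8, Erbb3 on chromosome 10, and Egfr and Erbb2 on chromosome 11. Of the 10 genes, 6 had a promoter in the RefSeq table (GRCm38.p6). The bases before the annotated start are shown for Areg, whose promoter held a full cAMP response element, the site of CREB proteins, and for Epgn and Btc of the same cluster. Ereg, the remaining ligand of the cluster, had no promoter there and was not examined, and no relation of the element to levels was tested. The element (TGACGTCA, the same on both strands) is in capitals, and each sequence is given 5′ to 3′ on the gene's own strand.
Areg, chr5:91139349-91139598, plus strand: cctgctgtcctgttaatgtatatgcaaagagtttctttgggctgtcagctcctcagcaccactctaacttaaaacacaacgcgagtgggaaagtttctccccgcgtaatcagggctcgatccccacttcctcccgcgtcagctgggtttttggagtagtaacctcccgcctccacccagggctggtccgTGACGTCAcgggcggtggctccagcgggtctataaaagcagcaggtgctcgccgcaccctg
Epgn, chr5:91027267-91027463, plus strand: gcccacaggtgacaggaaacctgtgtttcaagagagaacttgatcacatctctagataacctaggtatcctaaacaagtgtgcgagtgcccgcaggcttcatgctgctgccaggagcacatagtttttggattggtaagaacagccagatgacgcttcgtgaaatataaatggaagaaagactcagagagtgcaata
Btc, chr5:91402995-91403244, minus strand: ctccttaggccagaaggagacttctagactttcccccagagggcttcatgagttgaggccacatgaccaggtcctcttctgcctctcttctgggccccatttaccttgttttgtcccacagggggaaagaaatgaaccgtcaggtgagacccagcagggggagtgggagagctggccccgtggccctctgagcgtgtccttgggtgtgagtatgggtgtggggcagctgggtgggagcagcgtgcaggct
The element of Areg stood 61 to 54 bases before the start. In the up to 250 bases before the start that the table holds (197 for Epgn) it occurred in 1.55% of 32851 mouse promoters and in 1 of the 6 promoters examined here. The AP-1 letters TGANTCA occurred in 6.75% and the TCF letters CTTTGAT in 3.21% of all promoters, searched on both strands, and in 0 of the 6. A match is a stretch of letters, and no binding was measured.

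Per unit of transcript length, Areg was the most abundant of the 7 ligands in 23 of the 24 libraries, and Tgfa in the remaining one, a KO tumour. Areg ran from 10.9 to 168 TPM (the deposited abundance, scaled for transcript length and library) with a median of 29.6 TPM. Hbegf followed with a median of 16 TPM and Tgfa with 12.3 TPM, whereas Ereg, Btc and Nrg1 had medians of 4.88, 4.71 and 2.92 TPM. Epgn was scarce everywhere, with at most 1.33 TPM. Among the receptors, Erbb3 had a median of 68.0 TPM, Erbb2 of 49.5 TPM and Egfr of 7.67 TPM, so Erbb3 and Erbb2 held most of the receptor transcripts in all groups.

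**Figure D1:**
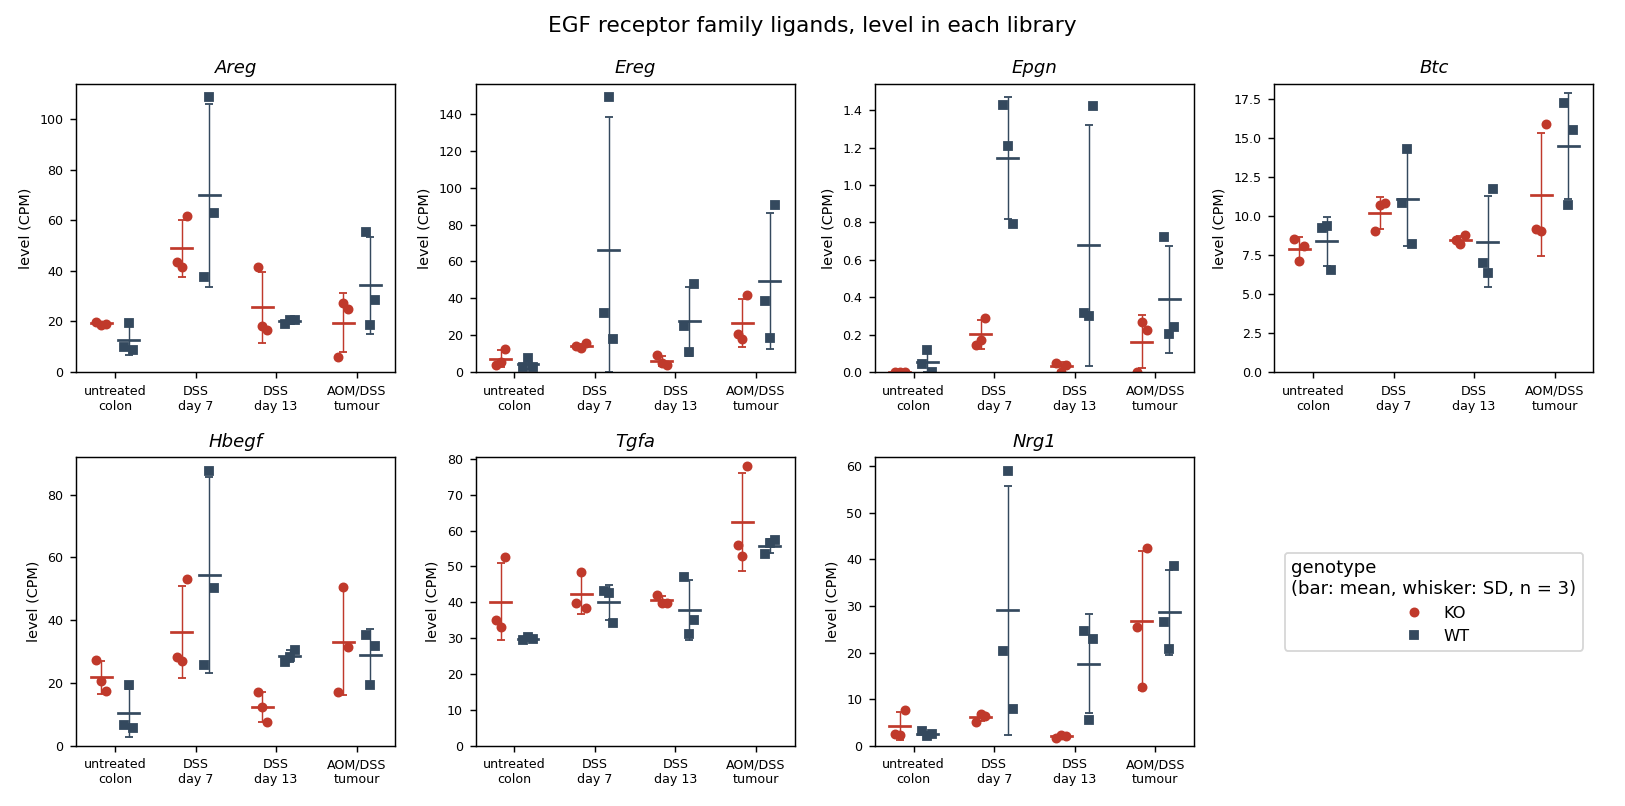
Level in CPM (linear axis from 0, a separate scale for each gene) of the 7 ligands in each library of untreated colon, DSS day 7, DSS day 13 and AOM/DSS tumour, with KO in red circles and WT in blue squares. Bars are means and whiskers SD of 3 libraries, ended at 0 where they would go below it. In WT at day 7, 6 of the 7 ligands, all but Btc, lie above all untreated WT libraries, where 33.0% of all genes did not overlap in one direction or the other. Btc and Tgfa did not pass in colon.

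At day 7 of DSS the receptors Erbb2 and Erbb3 fell in both genotypes and several ligands rose. In KO colon 4 of the 10 genes passed the test against untreated KO, 2 upwards and 2 downwards, where 12.6% of all 18102 genes tested passed, 8.57% upwards and 4.07% downwards (edgeR's quasi-likelihood test, Benjamini-Hochberg adjustment over all genes, threshold 0.05). In WT colon 8 of the 10 passed against untreated WT, 6 upwards and 2 downwards, where 16.3% of all genes passed, 8.5% upwards and 7.77% downwards. The median log2 fold change was 0.39 over the 9 genes with a fold change in KO, against -0.036 for all genes, and 1.70 over the 10 genes in WT, against 0.026 for all genes. Without replicate 2 of WT day 7 and replicate 3 of untreated KO, 3 passed in KO and 8 in WT. With a covariate of Y-linked expression 2 passed in KO and 5 in WT. The same counts, 2 and 5, were found without the 4 colon libraries whose sequencing sample numbers repeat those of other colon libraries (replicate 2 of untreated KO, of untreated WT and of WT day 7, and replicate 3 of KO day 7).

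Areg, which has low affinity for EGFR and is a known product of injured epithelium, mast cells and lymphoid cells, was at 43.6, 41.4 and 61.9 CPM in KO at day 7, against 19.9, 18.6 and 19.2 CPM in untreated KO. In WT it was at 37.8, 109 and 62.9 CPM at day 7, against 9.95, 19.5 and 8.56 CPM untreated. In both genotypes all 3 day 7 libraries lay above all 3 untreated ones, as did 34.7% of all genes in one direction or the other in KO and 33.0% in WT. The log2 fold change was 1.38 ± 0.41 (SE) in KO with an adjusted p of 0.0372, and 2.47 ± 0.42 in WT with an adjusted p of 0.00232 by edgeR. The KO call held in 4 of 14 alternatives, with adjusted p between 0.00755 and 0.139, and the WT call in all 14.

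Ereg, a ligand of EGFR and ERBB4, was at 13.9, 13.3 and 15.6 CPM in KO at day 7, against 3.77, 5.45 and 12.6 CPM in untreated KO. In WT it was at 31.8, 149 and 18.1 CPM at day 7, against 2.96, 7.60 and 2.55 CPM untreated. Neither pair of groups overlapped, and in KO the margin was narrow, because replicate 3 of untreated KO was high. The log2 fold change was 1.0 ± 0.74 in KO (adjusted p = 0.425 by edgeR) and 3.93 ± 0.82 in WT (adjusted p = 0.00608).

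Hbegf, a heparin-binding ligand that is an early product of wounded epithelium and macrophages, was at 28.2, 27.1 and 53.0 CPM in KO at day 7, against 27.4, 20.5 and 17.4 CPM untreated. In WT it was at 25.6, 87.6 and 50.3 CPM at day 7, against 6.54, 19.4 and 5.55 CPM untreated. The KO groups overlapped and the WT groups did not. The log2 fold change was 0.76 ± 0.49 in KO (adjusted p = 0.347 by edgeR) and 2.38 ± 0.51 in WT (adjusted p = 0.00749).

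Nrg1, the neuregulin ligand of ERBB3 and ERBB4, which in the gut is known from mesenchymal cells, was at 5.16, 6.74 and 6.42 CPM in KO at day 7, against 2.49, 2.42 and 7.77 CPM untreated. In WT it was at 20.4, 59.0 and 7.84 CPM at day 7, against 3.10, 2.16 and 2.50 CPM untreated. All 3 WT day 7 libraries were higher than all 3 untreated ones, and the KO groups overlapped. The log2 fold change was 0.56 ± 0.66 in KO (adjusted p = 0.644 by edgeR) and 3.51 ± 0.71 in WT (adjusted p = 0.00559). Without the 4 libraries with repeated sample numbers the WT value was 2.32 with an adjusted p of 0.0843.

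Epgn, a low-affinity ligand of EGFR, rests on few reads. It had 3, 4 and 6 counts in KO at day 7 and 0 in each untreated KO library, and 32, 20 and 15 counts in WT at day 7 against 1, 3 and 0 in untreated WT. It passed in both genotypes (edgeR, adjusted p = 0.0288 in KO and 0.00672 in WT). The WT call was lost with a covariate of Y-linked expression (edgeR, adjusted p = 0.0602). In KO only Erbb2 and Erbb3 passed with that covariate, so the KO call of Epgn was lost too. The same held in KO without the 4 libraries with repeated sample numbers, where Epgn did not pass either. With a floor of 3 counts over the untreated KO group, KO at day 7 was at least 5.01-fold higher, and in WT the log2 fold change was 4.20 ± 0.85. Btc and Tgfa did not pass in either genotype. Btc, a ligand of EGFR and ERBB4, had log2 fold changes of 0.39 ± 0.25 in KO and 0.41 ± 0.26 in WT, and Tgfa, a classical EGFR ligand of differentiated surface epithelium, 0.10 ± 0.18 and 0.42 ± 0.18 (lowest adjusted p = 0.117).

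**Figure D2:**
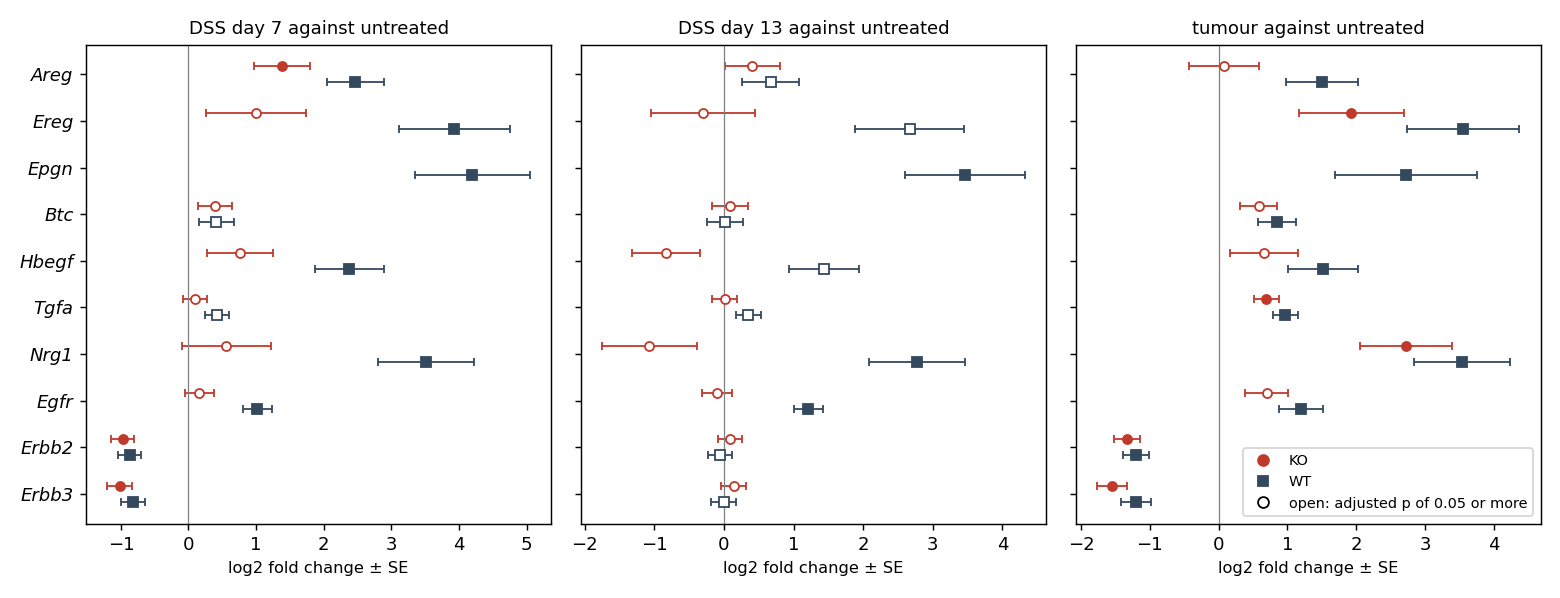
Log2 fold change ± SE (linear axis) of each gene at day 7, at day 13 and in tumours against untreated colon, for KO (red circles) and WT (blue squares), 3 libraries a group. Filled symbols passed at an adjusted p under 0.05 by edgeR. Epgn in KO has no symbol because it had 0 counts in untreated KO. Erbb2 and Erbb3 lie left of 0 in both genotypes at day 7 and in tumours.

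Among the receptors, Erbb2 and Erbb3 fell in both genotypes at day 7, and Egfr rose in WT. Erbb2 averaged 122 ± 20.5 CPM in KO at day 7 and 245 ± 19.0 CPM in untreated KO (SD, n = 3 each), and 114 ± 23.1 CPM in WT at day 7 and 207 ± 29.0 CPM in untreated WT. Erbb3 averaged 233 ± 50.2 CPM in KO at day 7 and 481 ± 40.2 CPM in untreated KO, and 219 ± 16.2 CPM in WT at day 7 and 385 ± 50.6 CPM in untreated WT. For both genes, every day 7 library was below every untreated library of its genotype. The log2 fold changes in KO were -0.97 ± 0.17 for Erbb2 and -1.02 ± 0.18 for Erbb3 (edgeR, adjusted p = 0.00209 and 0.00202). In WT they were -0.87 ± 0.17 and -0.82 ± 0.18 (adjusted p = 0.00478 and 0.00767). The KO calls held in all alternatives run, and the WT calls were lost with a covariate of Y-linked expression (adjusted p = 0.0604 and 0.0788), that of Erbb2 also without the 4 libraries with repeated sample numbers (adjusted p = 0.0548). Erbb2 overlaps Mien1 on the opposite strand, and because the strand setting is not given its counts could include reads of that gene, which reached 75.7 CPM.

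Egfr, the receptor of the EGF-type ligands, stood at 42.3, 41.3 and 41.8 CPM in KO at day 7, against 33.6, 31.7 and 48.8 CPM untreated. In WT it was at 57.5, 82.8 and 64.0 CPM at day 7, against 34.7, 30.3 and 35.7 CPM untreated. The KO libraries at day 7 were tightly grouped inside the range of untreated KO, and the WT groups were apart. The log2 fold change was 0.16 ± 0.21 in KO (adjusted p = 0.666 by edgeR) and 1.02 ± 0.21 in WT (adjusted p = 0.00547). Without the 4 libraries with repeated sample numbers the WT value was 0.78 and did not pass (edgeR, adjusted p = 0.082). The share of receptor TPM held by Egfr was 7.51% ± 1.44 in KO and 11.9% ± 2.87 in WT at day 7, against 3.63% ± 0.955 in untreated KO and 4.11% ± 0.483 in untreated WT (SD, n = 3).

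**Figure D3:**
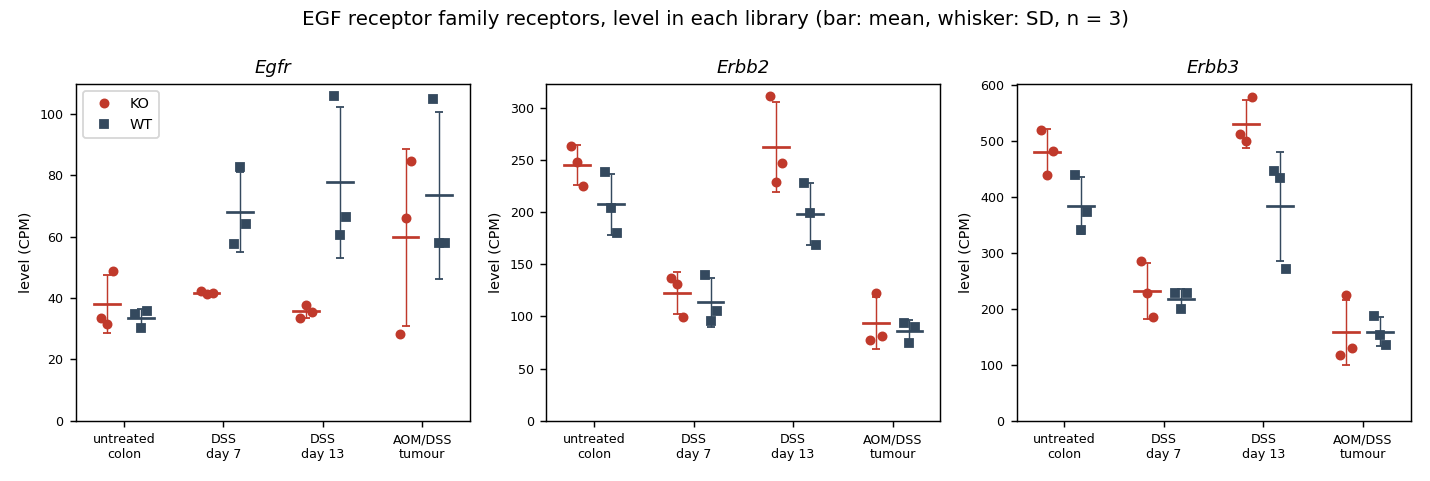
Level in CPM (linear axis from 0) of Egfr, Erbb2 and Erbb3 in each library, with KO in red circles and WT in blue squares, bars at the mean and whiskers of SD (n = 3). Erbb2 and Erbb3 are low at day 7 and in tumours and high in untreated and day 13 colon, and Egfr is lower in KO than in WT at day 7 and day 13 with no overlap.

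That a gene passed in WT and not in KO does not show that the responses differed, and the difference itself was tested. For the day 7 response, 0 of the 10 genes passed the test of KO response minus WT response by edgeR, where 0% of all genes passed. Of the 10, Ereg, Hbegf, Nrg1 and Egfr had an unadjusted p under 0.05, as had 13.7% of all genes, and DESeq2 called 1, Nrg1, with a log2 difference of -2.99 and an adjusted p of 0.0473. In the direct comparison of KO with WT at day 7, 0 of 10 passed by edgeR, where 0.00552% of all genes passed, although 4 had an unadjusted p under 0.05, as had 27.0% of all genes. These were Ereg at -2.23 ± 0.75, Nrg1 at -2.26 ± 0.67, Egfr at -0.70 ± 0.21 and Epgn at -2.47 ± 0.73 on the log2 scale, with adjusted p from 0.0717 to 0.0876. In all of them every KO library was below every WT library, as was the case in one direction or the other for 26.8% of all genes. DESeq2 called all 4 (adjusted p from 0.01 to 0.0384), and edgeR called Ereg, Nrg1 and Epgn once replicate 3 of WT day 7 was left out.

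Marker sums of other cells moved with these values at day 7. The 6 neutrophil markers summed to 1.28 to 2.99 CPM in KO and to 16.7 to 154 CPM in WT, and all 6 passed in WT against untreated WT, while 0 passed in KO. The 8 fibroblast and matrix markers summed to 591 to 929 CPM in KO and to 987 to 2816 CPM in WT. The 8 monocyte and macrophage markers summed to 61.1 to 95.7 CPM in KO and to 133 to 209 CPM in WT. Between KO and WT at day 7, 0 markers of these lists passed. Replicate 2 of WT day 7 had the highest neutrophil, fibroblast and smooth muscle sums of its group and the highest level of 6 of the 10 genes, Areg, Ereg, Btc, Hbegf, Nrg1 and Egfr. No marker of these lists was at 0 in either group. In bulk tissue fewer cells of a type and less RNA per cell cannot be told apart, and the part of these cells in the values of the family was not tested.

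At day 13 the genotypes differed in Egfr, Nrg1 and Epgn. All 3 were lower in KO than in WT, which made 3 of 10 genes past the test (edgeR), where 2.51% of all genes passed and 1.86% were lower in KO. At an unadjusted p under 0.05 there were 7 of 10, where 18.2% of all genes were. The median log2 difference of the 10 genes was -0.58, against -0.016 for all genes. The libraries of the groups did not overlap for 7 of the 10, with KO below WT for Ereg, Epgn, Hbegf, Nrg1 and Egfr and above it for Erbb2 and Erbb3, where 24.2% of all genes did not overlap.

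Egfr was at 33.6, 37.8 and 35.6 CPM in KO and at 106, 60.6 and 66.5 CPM in WT at day 13. KO lay in the range of untreated colon, and all WT libraries were above it. The log2 difference was -1.15 ± 0.21 with an adjusted p of 0.0152 by edgeR. Nrg1 was at 1.64, 2.36 and 2.08 CPM in KO and at 24.6, 5.47 and 22.9 CPM in WT, so its WT libraries spread over a wide range and the lowest of them was still above all KO ones. The log2 difference was -3.16 ± 0.71 with an adjusted p of 0.0311. Epgn had 2 counts in all of KO at day 13 and 44 in WT, a ratio of 0.0458 with a 95% counting interval of 0.0054 to 0.176, and an adjusted p of 0.035 by edgeR. The interval covers counting error and no difference between animals.

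Ereg was at 9.03, 4.80 and 4.05 CPM in KO and at 24.7, 10.6 and 47.6 CPM in WT at day 13, and Hbegf at 17.1, 12.2 and 7.45 CPM in KO and at 26.7, 28.4 and 30.5 CPM in WT. Both were lower in every KO library than in any WT library, and neither passed. Their log2 differences were -2.26 ± 0.76 (adjusted p = 0.126 by edgeR) and -1.25 ± 0.50 (adjusted p = 0.195). Areg, Btc and Tgfa overlapped between the genotypes, with log2 differences of 0.31 ± 0.40, -0.02 ± 0.26 and 0.07 ± 0.18. Erbb2 averaged 262 ± 43.5 CPM in KO and 198 ± 30.2 CPM in WT, and Erbb3 531 ± 42.6 CPM in KO and 384 ± 97.7 CPM in WT (SD, n = 3). Their log2 differences of 0.37 ± 0.17 and 0.44 ± 0.18 did not pass (adjusted p = 0.261 and 0.202).

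The 3 calls at day 13 were lost in several alternatives. With a covariate of Y-linked expression 0 of 10 passed, at log2 differences of -1.21 for Egfr (adjusted p = 0.207) and -3.31 for Nrg1 (adjusted p = 0.272), and at day 13 all KO libraries were female-type and all WT libraries male-type. Without the 2 libraries rich in squamous keratins 0 passed as well, at -1.20 (adjusted p = 0.157) and -2.77 (adjusted p = 0.327). The count was 0 without replicate 1 or 3 of KO or replicate 1 of WT, 1 without replicate 2 of KO or replicate 3 of WT, and 4 without replicate 2 of WT. Immune and stromal markers moved with these genes. All 6 neutrophil markers and all 8 monocyte and macrophage markers were lower in KO (edgeR), at sums of 0.882 to 10.6 CPM in KO against 36.9 to 339 CPM in WT, and of 35.6 to 64.3 CPM in KO against 101 to 209 CPM in WT. Of the 8 fibroblast and matrix markers 2 were lower in KO, and the sums were 421 to 734 CPM in KO and 1032 to 2562 CPM in WT. Their part in the values of the family was not tested.

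Against untreated colon of the same genotype, 0 of 10 genes passed at day 13 in KO (edgeR), where 0.0276% of all genes passed. None of them had an unadjusted p under 0.05 (0, against 7.62% of all genes), and DESeq2 called 0. In WT 3 passed, all upwards, where 4.24% of all genes passed, 3.21% upwards: Epgn at 3.46 ± 0.86 (adjusted p = 0.0427), Nrg1 at 2.78 ± 0.69 (adjusted p = 0.0391) and Egfr at 1.21 ± 0.21 (adjusted p = 0.00891) on the log2 scale. DESeq2 called 5 in WT, with Ereg (2.71, adjusted p = 0.0035) and Hbegf (1.48, adjusted p = 0.0318) in addition. The WT count dropped to 0 without replicate 1 or replicate 2 of untreated WT, and to 1 without replicate 3 of untreated WT or replicate 1 or 3 of WT day 13. In the same comparison in WT all 6 neutrophil markers, 1 of 8 monocyte and macrophage markers and the 1 mast cell marker tested were higher and 3 of 8 smooth muscle markers were lower, while in KO 0 markers of these lists passed, and their part was not tested. All 3 day 13 libraries were above all 3 untreated ones for 6 genes in WT, where 27.1% of all genes did not overlap. In KO 2 genes, Hbegf and Nrg1, had all day 13 libraries below all untreated ones, where 15.9% did not overlap.

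The genes differed in what happened between day 7 and day 13. In KO, Erbb2 rose by 1.06 ± 0.17 and Erbb3 by 1.15 ± 0.18 on the log2 scale at day 13 relative to day 7 (edgeR, adjusted p = 0.000891 and 0.000671), and Hbegf fell by 1.59 (SE 0.50, adjusted p = 0.0493). These were 3 of 10 genes, where 12.8% of all genes passed, 4.22% upwards and 8.61% downwards. The libraries of day 13 and day 7 did not overlap for 8 of the 10 in KO, 2 of them higher and 6 lower at day 13, where 39.2% of all genes did not overlap. The Hbegf call was lost without any single library of either KO group, at adjusted p from 0.0586 to 0.207. In WT 0 of 10 passed, where 0.0608% of all genes passed, and DESeq2 called 3. The same 3 had an unadjusted p under 0.05, as had 16.9% of all genes, and did not overlap between the days, as 13.8% of all genes did not. They were Areg at -1.80 ± 0.41, Erbb2 at 0.81 ± 0.17 and Erbb3 at 0.82 ± 0.18 (edgeR, adjusted p from 0.0753 to 0.0831). Whether the change from day 7 to day 13 differed between the genotypes was not tested. WT Egfr was at 77.7 ± 24.8 CPM at day 13 and 68.1 ± 13.1 CPM at day 7, a log2 difference of 0.19 ± 0.20.

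The test of KO response minus WT response at day 13 found 0 of 10 genes by edgeR, where 0.011% of all genes passed. At an unadjusted p under 0.05 there were 4, where 13.5% of all genes were. The values were -1.31 ± 0.29 for Egfr (adjusted p = 0.0853), -3.85 ± 0.97 for Nrg1 (adjusted p = 0.115), -2.28 ± 0.70 for Hbegf (adjusted p = 0.18) and -2.97 ± 1.07 for Ereg (adjusted p = 0.246). DESeq2 called Egfr, Nrg1 and Hbegf (adjusted p = 0.00347, 0.00285 and 0.0357). By edgeR, Nrg1 and Egfr passed once replicate 2 of WT day 13 was left out (adjusted p = 0.024 and 0.0168). KO libraries were all male-type untreated and all female-type at day 13, so these differences cannot be told apart from that change by the groups alone.

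In untreated colon no difference between the genotypes passed the test. Of the 10 genes 0 passed between KO and WT by edgeR and 0 by DESeq2, where 0.011% of all genes passed by edgeR, and 2 (Epgn and Tgfa) had an unadjusted p under 0.05, as had 6.53% of all genes. Tgfa, at 35.0, 33.1 and 52.6 CPM in KO and 29.4, 30.2 and 29.8 CPM in WT, was the 1 gene of the 10 whose libraries did not overlap, where 18% of all genes did not. Hbegf averaged 21.8 ± 5.12 CPM in KO and 10.5 ± 7.71 CPM in WT (SD, n = 3), a log2 difference of 1.02 ± 0.50 that did not pass (adjusted p = 0.763). Over the 10 genes the median log2 difference was 0.36, against -0.007 for all genes. Not passing the test does not show that the genotypes were alike. Averaged over the 3 colon conditions, Egfr (-0.57 ± 0.12, adjusted p = 0.0209), Nrg1 (-1.58 ± 0.39, adjusted p = 0.0348) and Epgn (adjusted p = 0.0218) were lower in KO, 3 of 10 where 4.84% of all genes passed and 3.88% were lower. In the same average all 8 monocyte and macrophage markers, 6 of 8 fibroblast and matrix markers, 2 of 6 neutrophil markers and the 1 mast cell marker tested were lower in KO, and their part was not tested. The Nrg1 call was lost in 18 of 27 alternatives, with adjusted p between 0.00112 and 0.197. None of the 3 passed without the 4 libraries with repeated sample numbers, or without the 2 libraries rich in squamous keratins.

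**Figure D4:**
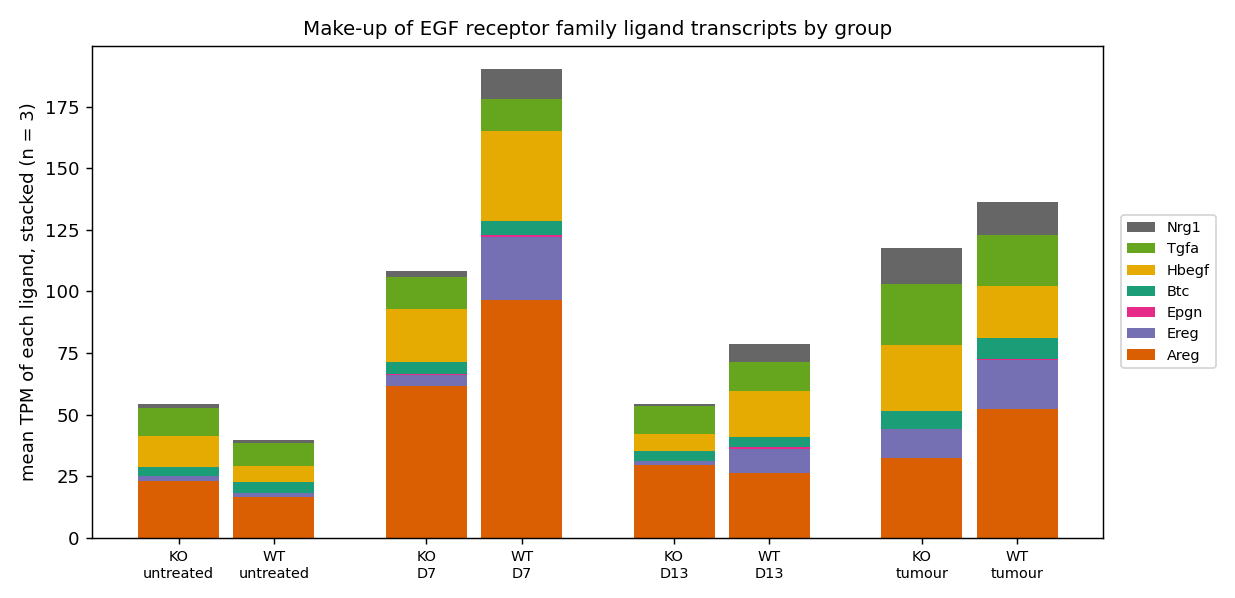
Mean TPM of each of the 7 ligands (linear axis from 0, 3 libraries a group), stacked for KO and WT in untreated colon, DSS day 7 (D7), DSS day 13 (D13) and tumours. Areg is the broadest layer in all groups, the stack is highest in WT at day 7 at 190 TPM, where replicate 2 alone summed to 344 TPM and the others to 102 and 125 TPM, and Ereg and Nrg1 add a visible share in WT at day 7 and day 13 and in both tumour groups.

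The summed ligand TPM was 54.4 ± 3.07 in KO and 39.5 ± 13.8 in WT untreated colon, 108 ± 19.2 and 190 ± 134 in KO and WT at day 7, 54.1 ± 17.3 and 78.8 ± 18.1 in KO and WT at day 13, and 118 ± 33.4 and 136 ± 40.4 in KO and WT tumours (SD, n = 3). The mean in KO at day 13 was close to that in untreated KO, and its libraries spread from 41.0 to 73.7 TPM. In WT at day 7 replicate 2 summed to 344 TPM and the others to 102 and 125 TPM, so that this mean and its lead over the tumours rest on 1 library. The shares of single ligands are given as values. Ereg held 4.43% ± 0.545 of ligand TPM in KO and 10.8% ± 6.52 in WT at day 7, where the groups overlapped, and 3.30% ± 0.273 in KO and 11.5% ± 6.44 in WT at day 13. Areg held 52.6% ± 8.77 of ligand TPM in KO and 34.3% ± 6.53 in WT at day 13. These shares were not tested.

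In the tumours of both genotypes Erbb2 and Erbb3 were lower and Nrg1, Ereg, Epgn and Tgfa higher than in untreated colon. In KO tumours 6 of 10 genes passed against untreated KO colon, 4 upwards and 2 downwards, where 49.9% of all 19056 genes tested passed, 26.4% upwards and 23.5% downwards. In WT tumours 10 of 10 passed against untreated WT colon, 8 upwards and 2 downwards, where 48.8% of all genes passed, 27.6% upwards and 21.2% downwards. Tumours and untreated colon did not overlap for 6 of the 10 genes in KO and 8 in WT, where 59.0% and 59.8% of all genes did not. The KO share is therefore near the background. The tumours and the colon also differed in tissue: smooth muscle markers summed to 127 to 278 CPM in tumours and 2130 to 11604 CPM in colon, and all 8 were lower in tumours of both genotypes. Neutrophil markers summed to 115 to 207 CPM in KO tumours and 178 to 285 CPM in WT tumours, against at most 1.2 CPM in untreated colon. Of 8 monocyte and macrophage markers 8 were higher in KO tumours and 7 in WT tumours. Of 10 epithelial markers 7 were lower and 1 higher in KO tumours, and 0 lower and 1 higher in WT tumours. Between KO and WT tumours 0 of these 10 passed. All 6 mast cell markers were higher in tumours of both genotypes. Of 8 fibroblast and matrix markers 5 were higher and 2 lower in KO tumours, and 3 higher and 2 lower in WT tumours. Of 8 squamous markers tested 7 were higher in KO tumours and 1 in WT tumours. Their part in the values below was not tested.

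The ligands Nrg1, Ereg, Epgn and Tgfa were higher in tumours of both genotypes. Nrg1 was at 25.5, 12.7 and 42.4 CPM in KO tumours, against 2.49, 2.42 and 7.77 CPM in untreated KO colon. In WT it was at 26.6, 20.8 and 38.6 CPM in tumours, against 3.10, 2.16 and 2.50 CPM in untreated colon. No tumour overlapped with untreated colon of its genotype, and the log2 fold changes were 2.72 ± 0.67 in KO and 3.54 ± 0.70 in WT (edgeR, adjusted p = 0.00266 and 0.000445). Ereg averaged 26.8 ± 13 CPM in KO tumours and 7.28 ± 4.69 CPM in untreated KO colon, a log2 fold change of 1.93 ± 0.76 (adjusted p = 0.0429) that was lost in several alternatives, at adjusted p up to 0.158. In WT it averaged 49.3 ± 37.0 CPM in tumours and 4.37 ± 2.81 CPM in untreated colon, a log2 fold change of 3.55 ± 0.82 (adjusted p = 0.00156). Tgfa was at 56.0, 53.0 and 78.0 CPM in KO tumours and 53.6, 56.5 and 57.3 CPM in WT tumours. All were above every colon library of either genotype, by a narrow margin, since replicate 3 of untreated KO was at 52.6 CPM. The log2 fold changes of Tgfa were 0.69 ± 0.18 in KO and 0.97 ± 0.18 in WT (edgeR, adjusted p = 0.00454 and 0.000298). Epgn had 13 counts in KO tumours and 0 in untreated KO colon (edgeR, adjusted p = 0.0181). Summed over the group, the KO tumours were at least 3.88-fold higher over a floor of 3 counts. Replicate 1 of KO tumours had 0 CPM of Epgn, so the KO groups overlapped. In WT, Epgn had 32 counts in tumours and 4 in untreated colon (edgeR, adjusted p = 0.0368).

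Areg, Hbegf, Btc and Egfr passed in WT tumours and not in KO tumours. Areg was at 6.07, 27.4 and 25.1 CPM in KO tumours and at 55.5, 18.7 and 28.6 CPM in WT tumours, and in both genotypes its tumour libraries overlapped with those of untreated colon. The log2 fold change was 0.08 ± 0.51 in KO (edgeR, adjusted p = 0.911) and 1.5 ± 0.52 in WT (adjusted p = 0.0228). For Hbegf the values were 0.66 ± 0.50 in KO (adjusted p = 0.28) and 1.52 ± 0.51 in WT (adjusted p = 0.0192), for Btc 0.58 ± 0.27 in KO (adjusted p = 0.0865) and 0.85 ± 0.28 in WT (adjusted p = 0.0153), and for Egfr 0.70 ± 0.31 in KO (adjusted p = 0.0691) and 1.20 ± 0.32 in WT (adjusted p = 0.00419). The calls of Areg, Epgn, Btc and Hbegf in WT were lost without replicate 1 of WT tumours or replicate 3 of untreated WT, which left 6 of 10. Without replicate 1 of untreated WT those of Areg, Epgn and Hbegf were lost as well (edgeR, adjusted p from 0.0828 to 0.101). In KO tumours Egfr passed in 3 of 14 alternatives. These included leaving out replicate 1 of KO tumours (1.04, adjusted p = 0.00534 by edgeR) or replicate 3 of untreated KO (0.94, adjusted p = 0.0369).

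Erbb2 and Erbb3 fell in the tumours of both genotypes. Erbb2 was at 77.0, 122 and 81.1 CPM in KO tumours and 93.9, 74.9 and 89.9 CPM in WT tumours. Erbb3 was at 118, 225 and 131 CPM in KO tumours and 188, 154 and 136 CPM in WT tumours. All tumour libraries were below all untreated colon libraries. The log2 fold changes of Erbb2 were -1.33 ± 0.19 in KO and -1.20 ± 0.19 in WT (edgeR, adjusted p = 2.43e-05 and 5.73e-05), and those of Erbb3 were -1.55 ± 0.22 and -1.20 ± 0.22 (adjusted p = 2.51e-05 and 0.00023). These 4 calls held in all alternatives run. Egfr held 13.5% ± 5.99 of receptor TPM in KO tumours and 16.2% ± 2.80 in WT tumours (SD, n = 3).

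Between KO and WT tumours 0 of the 9 genes tested passed by edgeR, and 0 by DESeq2, where 0% of all 17246 genes passed. None had an unadjusted p under 0.05 (0, against 3.79% of all genes). Epgn had too few counts to be tested there. All 10 overlapped between the genotypes, where 9.43% of all genes did not overlap. The values furthest from 0 were -0.89 ± 0.62 for Ereg and -0.83 ± 0.64 for Areg, so differences of that size could not be told from the spread of 3 tumours a group. For the tumour response in KO minus that in WT, 0 of 10 passed by edgeR and by DESeq2, and 0 had an unadjusted p under 0.05, where 0% of all genes passed and 8.67% had such a p.

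**Figure D5:**
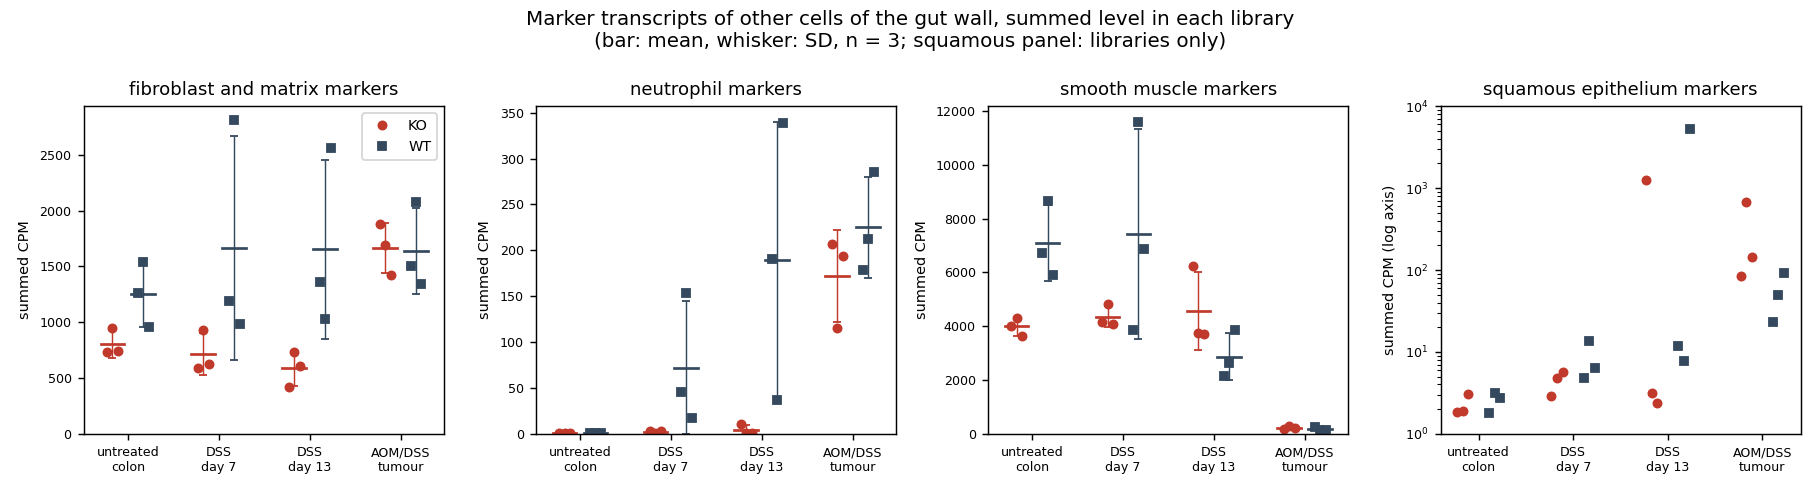
Summed level in CPM of marker transcripts of fibroblasts and matrix (8 genes), neutrophils (6), smooth muscle (8) and squamous epithelium (10, log axis) in each library, KO in red circles and WT in blue squares. Bars are means and whiskers SD of 3 libraries in the first panels, and the squamous panel shows libraries alone. Neutrophil and fibroblast sums are lower in KO than in WT at day 7 and day 13, and smooth muscle sums are low in all tumours.

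Other genes of the pathway were read from fixed lists. Of the other ligands and receptors of the family (Egf, Nrg2, Nrg3, Nrg4 and Erbb4), 3 were abundant enough to test in colon. Egf, the founding ligand, fell at day 7 in both genotypes, at 2.37 ± 0.668 CPM in KO and 5.18 ± 0.806 CPM in untreated KO, and at 2.16 ± 0.657 CPM in WT and 5.60 ± 0.803 CPM in untreated WT (SD, n = 3). The log2 fold changes were -1.10 ± 0.33 and -1.37 ± 0.33 (edgeR, adjusted p = 0.0419 and 0.0136). In tumours Egf fell by 2.27 in KO and fell by 2.19 in WT on the log2 scale (adjusted p = 3.17e-05 and 3.7e-05). Erbb4, the fourth receptor, averaged at most 0.138 CPM in any group.

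Of the 5 genes for shedding of ligands, 0 passed in KO at day 7 (0%, against 12.6% of all genes) and 1 in WT, where 16.3% of all genes passed. The gene was Rhbdf2, a partner of ADAM17 (0.90 ± 0.18, adjusted p = 0.00511 by edgeR). At day 13, 0 passed in KO, where 0.0276% of all genes passed, and 3 rose in WT, where 3.21% of all genes rose. They were the protease Adam10 at 0.59 ± 0.12, the protease Adam17 at 0.54 ± 0.11 and Rhbdf2 at 0.82 ± 0.18 (edgeR, adjusted p = 0.0151, 0.0188 and 0.0239). In tumours the same 3 rose in KO, by 0.85 ± 0.12, 0.45 ± 0.15 and 1.02 ± 0.18, where 26.4% of all genes rose. In WT tumours 4 rose, where 27.6% of all genes rose, with Adam10 at 1.12 ± 0.12, Rhbdf2 at 1.28 ± 0.18 and Adam17 at 0.65 ± 0.15. Between KO and WT, 0 of the 5 passed at any time or in tumours.

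Of 12 feedback inhibitors of the receptors and of ERK, 1 rose and 0 fell in KO at day 7, where 12.6% of all genes passed. In WT 2 rose and 1 fell, where 16.3% of all genes passed. Spry4, a Sprouty inhibitor of RAS-ERK signalling, rose in both, by 1.92 ± 0.30 in KO and 2.46 ± 0.31 in WT (edgeR, adjusted p = 0.000995 and 0.000677). Dusp6, the phosphatase that switches off ERK, rose in WT by 2.24 ± 0.27 (adjusted p = 0.00064), at 119 ± 38.4 CPM against 25.2 ± 6.19 CPM untreated. Lrig3, of a family of receptor-binding membrane proteins, fell by 1.08 in WT (SE 0.27). At day 13, 0 of the 12 passed in KO against untreated, where 0.0276% of all genes passed. In WT 2 rose, Dusp6 (1.54 ± 0.27) and Spry4 (1.19 ± 0.30), where 3.21% of all genes rose. In tumours 3 rose and 4 fell in KO, where 49.9% of all genes passed, and 5 rose and 4 fell in WT, where 48.8% passed, so the KO share is near the background. Dusp4, another ERK phosphatase, rose by 3.86 ± 0.46 in KO and 3.83 ± 0.46 in WT tumours, and Lrig3 fell by 2.32 in KO and fell by 2.98 in WT tumours.

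Of 9 ERK-responsive transcripts, 2 rose in KO and 5 in WT at day 7, where 8.57% of all genes rose in KO and 8.5% in WT. Phlda1 rose by 1.76 ± 0.32 in KO and 2.66 ± 0.33 in WT, the transcription factor Etv4 by 2.61 ± 0.41 in KO, and Plaur, the urokinase receptor, by 2.75 ± 0.47 and the AP-1 subunit Fosl1 by 5.97 ± 1.18 in WT (edgeR, adjusted p between 0.000677 and 0.00487). The Fosl1 fold rests on 0.0548 CPM in untreated WT. At day 13, 0 of the 9 passed in KO, where 0.0276% of all genes passed. In WT 2 rose, Plaur (2.61 ± 0.47) and Phlda1 (1.61 ± 0.32), where 3.21% of all genes rose. Plaur was 3.26 ± 0.908 CPM in KO and 21.4 ± 8.82 CPM in WT at day 13. It was the 1 gene of the 9 that passed between the genotypes there (-2.75 ± 0.48, adjusted p = 0.0133 by edgeR), where 2.51% of all genes passed. In tumours 6 rose in KO and 7 in WT, where 26.4% of all genes rose in KO and 27.6% in WT, with median log2 fold changes of 2.36 and 3.71 over the 9, against 0.042 and 0.094 over all genes. Phlda1 rose by 3.76 ± 0.33 in KO and 4.34 ± 0.34 in WT tumours. Plaur is also a product of neutrophils and macrophages, whose markers were lower in KO at day 13 and higher in tumours, and the part of those cells was not tested.

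Of 13 transducers between receptor and ERK, 1 rose and 1 fell in KO at day 7, where 12.6% of all genes passed. In WT 0 rose and 1 fell, where 16.3% of all genes passed. Gab1, a docking protein, fell in both genotypes, with log2 fold changes of -1.21 in KO and -1.12 in WT (edgeR, adjusted p = 0.00998 and 0.0145). The adaptor Shc1 rose in KO by 0.44 ± 0.10. In KO, Gab1 was higher at day 13 than at day 7 (1.19 ± 0.28, adjusted p = 0.00968), the same direction as Erbb2 and Erbb3. In tumours 2 rose and 4 fell in KO, and 2 rose and 3 fell in WT, shares at or below the 49.9% and 48.8% of all genes that passed. Nras rose by 0.98 ± 0.10 in KO and 1.20 ± 0.10 in WT, and Map2k1, which encodes MEK1, fell by 1.41 in KO and fell by 1.15 in WT.

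Ranked by group mean over the 8 groups, WT at day 7 was the highest for Areg, Ereg, Epgn, Hbegf and Nrg1. For Ereg and Nrg1 that rank rests on replicate 2, since the other WT day 7 libraries, at 31.8 and 18.1 CPM of Ereg and 20.4 and 7.84 CPM of Nrg1, lay below the WT tumour means of 49.3 and 28.7 CPM. WT tumours were the highest for Btc, KO tumours for Tgfa, WT at day 13 for Egfr, and KO at day 13 for Erbb2 and Erbb3. Most neighbours in these orders overlapped in their libraries. Those apart were KO tumours over KO day 7 and KO day 7 over untreated KO for Ereg, KO day 7 over KO day 13 for Btc, untreated KO over KO day 13 for Hbegf, and WT tumours over KO day 7 and WT day 13 over untreated WT for Tgfa. For Erbb2 it was WT day 13 over KO day 7, and for Erbb3 WT day 7 over WT tumours.

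Across the 24 libraries Pearson's r of log2 CPM was 0.97 between Erbb2 and Erbb3, 0.91 between Ereg and Nrg1, 0.77 between Areg and Hbegf and 0.76 between Nrg1 and Egfr. Of 11401 other genes, those most like Erbb3 were Arfgap3 (r = 0.968) and Ctdsp2 (r = 0.954), and those most like Erbb2 were Ctdsp2 (r = 0.957) and Cables1 (r = 0.946). Cebpb (r = 0.951) and Epha2 (r = 0.914) were closest to Ereg, Timp1 (r = 0.95) and Plaur (r = 0.945) to Nrg1, and Clca3a1 (r = 0.877) and Lyn (r = 0.87) to Egfr. Dusp6 (r = 0.857) and Epha2 (r = 0.848) were closest to Hbegf, Lrrc8b (r = 0.879) and Tnfaip8l1 (r = 0.877) to Tgfa, and Pard6b (r = 0.794) and Prag1 (r = 0.783) to Areg. Btc was closest to Yaf2 (r = 0.785) and Dusp22 (r = 0.761), and Epgn to Capns1 (r = 0.821) and Ly6c1 (r = 0.81). These values describe 24 libraries that share groups, tissue make-up and depth, and carry no test.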

How the data were processed

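Messenger RNA of colon and tumours washed in PBS was extracted with Trizol and sequenced on Illumina libraries, per the labels' protocols. Per the submitters' processing notes, the authors worked on the GRCm38 build with STAR 2.7.6a as aligner and RSEM 1.3.1 for quantification. Neither the labels nor the files name the annotation release or a strand setting. The deposited tables hold, per library, expected counts, which are RSEM's estimates with no scaling, and TPM, which the authors' RSEM run scaled by transcript length and library. Between 11.0% and 12.44% of the expected counts in a library were not whole, since RSEM divides reads among the genes they could come from.

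Expected counts were rounded and tested in R 4.3.3 with edgeR 4.0.16 (limma 3.58.1): TMM scaling, filterByExpr with a minimum count of 10 and total of 15, a robust quasi-likelihood fit, and Benjamini-Hochberg adjustment over all genes. Colon comparisons used the 18 colon libraries in 1 fit, KO against WT tumours the 6 tumour libraries, and tumour against colon all 24. Levels in CPM use TMM factors over 24 libraries, and deposited TPM were used to compare genes with each other. Groups came from the labels, and replicate numbers from accession order. All 10 genes are described in each of 16 comparisons, together with Axin1, up to 3 genes with the smallest p in each pathway list, and the 2 genes most like each member among genes averaging 5 CPM or more. The genes and lists were chosen with earlier results of these data known. Alternatives were DESeq2 1.42.0, RLE size factors, no filter, a filter of 1 CPM in 6 libraries, a fit on more or fewer libraries, a term for the level of 4 Y-linked transcripts, and leaving out libraries. The steps were tested on simulated data. Promoters and gene positions came from RefSeq (GRCm38.p6) and GENCODE M21 (GRCm38). Chi-square tests of the counts within groups found no library deposited more than once, and pairs across groups were not tested.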

Additional observations from a re-analysis of the deposited data

Results flagged for a closer look

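Hbegf and Nrg1 stood apart at day 13 because their libraries separated from untreated colon on opposite sides in KO and WT. For both genes every KO day 13 library was below every untreated KO library, and every WT day 13 library was above every untreated WT library. In KO the margins were narrow, with the highest day 13 library at 17.1 CPM of Hbegf and 2.36 CPM of Nrg1, against the lowest untreated library at 17.4 and 2.42 CPM. In KO 15.9% and in WT 27.1% of all genes did not overlap in one direction or the other. In KO neither gene passed against untreated (edgeR, -0.83 and -1.07, adjusted p = 0.758 and 0.785). In WT Hbegf did not pass (1.44, adjusted p = 0.107) and Nrg1 did (2.78, adjusted p = 0.0391). For Hbegf the difference between the responses, KO minus WT, was -2.28 ± 0.70 on the log2 scale (edgeR, adjusted p = 0.18). For Nrg1 it was -3.85 ± 0.97 (edgeR, adjusted p = 0.115). Neither passed by edgeR, and DESeq2 called both (adjusted p = 0.0357 and 0.00285). Female-type were 0 of 3 untreated KO, 3 of 3 KO day 13, 1 of 3 untreated WT and 0 of 3 WT day 13. The opposite sides therefore cannot be told apart from this difference by the groups alone. In WT all 6 neutrophil markers were higher at day 13 than untreated and in KO 0 were, and their part was not tested.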

How the results depend on the processing

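Among 38 called results for single genes with a fold change, 16 were called in every alternative and 0 changed sign. Of 118 not called, 17 were called in some alternative. The numbers of the 10 genes past the threshold changed as follows. By DESeq2 there were 4 in KO against WT at day 7, 5 in WT at day 13 against untreated, 3 in WT at day 13 against day 7, and 1 and 3 in the tests of KO minus WT response at day 7 and day 13. With the covariate of Y-linked expression there were 0 in KO against WT at day 13, 2 in KO and 5 in WT at day 7 against untreated, and 1 in WT at day 13 against untreated. Without the 2 libraries rich in squamous keratins there were 0 in KO against WT at day 13, 0 in the colon average and 1 in WT at day 13 against untreated. Without the 4 libraries with repeated sample numbers there were 0 in the colon average, 2 in KO and 5 in WT at day 7 against untreated and 0 in WT at day 13 against untreated. In WT tumours, 8 passed with no filter and 7 with only the compared groups in the fit, where Epgn was not tested.

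Leaving out 1 library at a time gave 0 to 3 in KO against WT at day 7, 0 to 4 at day 13 and 1 to 4 in the colon average. It gave 2 to 3 in KO and 8 to 8 in WT at day 7 against untreated, 0 to 4 in WT at day 13 against untreated, 2 to 3 in KO and 0 to 2 in WT at day 13 against day 7, 5 to 7 in KO tumours and 6 to 10 in WT tumours. For KO minus WT response it gave 0 at day 7 and 0 to 2 at day 13. The cause of these changes was not tested, except that fewer libraries were fitted. No paired analysis was possible because replicate numbers follow accession order and mark no shared animal. With 3 libraries a group and Epgn at under 70 counts a group, small differences were not detectable at this depth.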
